A study of Schizosaccharomyces pombe with 25 samples.

Results

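The genes described here are those of the 4 ends of chromosomes I and IIc of the fission yeast Schizosaccharomyces pombe. They were chosen from the deposited gene annotation as every gene whose span lies wholly within 150000 bases of a chromosome end. There are 299 such genes among the 7015 of the annotation, with 83 at the left end of chromosome I, 81 at its right end, 73 at the left end of IIc and 62 at its right end. IIc is the chromosome II of the deposited reference genome, the one with an exchanged central core of the centromere. Chromosome I measured 5579133 bases and IIc 4538954 bases. The rest of chromosome I held 2963 genes and the rest of IIc 2417.

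The series measured, by chromatin immunoprecipitation and sequencing, where CENP-A, the histone variant of centromeres, H2A.Z and the Swr1 remodeller bind the genome. The labels list 25 samples in 13 groups. CENP-A (Cnp1) was precipitated from pht1∆, swr1∆, msc1∆ and wild-type (wt) cells, with 1 sample each of cc2∆:cc1 strains of these genotypes, and from strains without that label with 1 sample for each deletion and 2 for wt. H2A.Z(Pht1) carrying a Myc tag was precipitated in 4 samples each of swr1∆, msc1∆ and wt, and Swr1-myc and Msc1-flag in 2 wt samples each. No sample value was analysed here, so depth and replicate spread are not reported, and all counts below describe 1 annotation, for which no test between replicates exists.

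Subtelomeres are the stretches of chromosome just inside the telomere repeats. In fission yeast they carry heterochromatin over their outer part, which silences genes placed there, and neighbouring regions are known for genes that respond to nutrients and stress. Chromosome ends can exchange sequence with each other, so that copies of one gene may sit at several of them.

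Sequences shared between ends are shown first, since the comparisons below turn on them. All come from the RefSeq assembly ASM294v3, matched to the deposited genes by systematic identifier, and their coordinates are those of that assembly. The first set is the intron of a family of 10 uncharacterized proteins found at all 4 ends, each of whose genes has 1 intron. The introns of 9 of these genes are described here. An intron of 58 bases (chrI:29228-29285, forward strand, in SPAC212.01c) was the same in 5 genes at all 4 ends, namely SPAC212.01c, SPAC750.06c, SPBC1348.01, SPBCPT2R1.01c and SPBCPT2R1.04c. An intron of 50 bases (chrI:39849-39898, forward strand, in SPAC977.06) was the same in SPAC977.06, SPBC1348.07 and SPBPB2B2.14c. The intron of SPBPB2B2.07c (chrII:4474404-4474437, reverse strand) was 34 bases long. Capitals mark the first and the last 2 bases.
SPAC212.01c: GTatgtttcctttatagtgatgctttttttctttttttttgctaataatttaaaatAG
SPAC977.06: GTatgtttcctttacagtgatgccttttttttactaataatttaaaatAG
SPBPB2B2.07c: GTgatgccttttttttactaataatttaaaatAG

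The second set shows the first 60 coding bases of 3 methyltransferase genes, 1 at each of 3 ends, because they lie in the runs of equal gene order described below. SPAC977.03 (chrI:33835-33894, forward strand) and SPBC1348.04 (chrII:12176-12235, forward strand) did not differ over these bases, and SPAC750.03c (chrI:5562986-5563045, reverse strand) differed from each of them at 2. Capitals mark the positions that differ within the set.
SPAC977.03: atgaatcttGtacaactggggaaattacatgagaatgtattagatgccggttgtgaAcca
SPBC1348.04: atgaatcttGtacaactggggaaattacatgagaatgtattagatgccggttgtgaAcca
SPAC750.03c: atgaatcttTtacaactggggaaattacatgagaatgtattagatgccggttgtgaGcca

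The third set compares a phospholipase pair of 2 ends with a relative in the rest of chromosome I. SPAC977.09c (chrI:48101-48160, reverse strand) and SPBC1348.10c (chrII:28313-28372, reverse strand) were identical over their whole coding sequence of 2022 bases. SPAC1A6.03c (chrI:1072068-1072127, reverse strand) differed from both at 26 of its first 60 coding bases. Capitals again mark positions that differ within the set.
SPAC977.09c: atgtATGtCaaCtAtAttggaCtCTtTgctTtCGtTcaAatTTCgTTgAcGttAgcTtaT
SPBC1348.10c: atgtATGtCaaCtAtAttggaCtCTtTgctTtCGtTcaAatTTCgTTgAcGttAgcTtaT
SPAC1A6.03c: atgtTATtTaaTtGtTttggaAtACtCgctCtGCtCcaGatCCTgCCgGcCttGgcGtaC

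Per 100 kb, each end carried fewer protein-coding genes than the rest of its chromosome. Non-coding RNA genes were denser at 3 ends, with the right end of IIc at 10 per 100 kb, against 12.3 in the rest of IIc, and pseudogenes were denser at 3 ends, with 0 at the right end of chromosome I. The left and right ends of chromosome I had 54 and 50 protein-coding genes, or 36 and 33.3 per 100 kb, against 42.2 per 100 kb in the rest of that chromosome. The left and right ends of IIc had 42 and 43, or 28 and 28.7 per 100 kb, against 42.1 in its rest. Over the 4 ends there were 189 protein-coding genes, 31.5 per 100 kb, against 42.2 per 100 kb over both rests. When the remainder of each chromosome was divided into windows of the same width, the 35 windows of chromosome I held 54 to 70 protein-coding genes (median 63) and the 28 windows of IIc 48 to 71 (median 62.5). The left end of chromosome I equalled the lowest of its windows, and the other ends lay below every window of their chromosome. A window loses genes that cross either of its edges, whereas an end loses them at its inner edge alone.

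Coding bases covered 41.1% and 38.5% of the left and right ends of chromosome I, against 60.2% of its rest. On IIc they covered 34.3% of the left end and 37.5% of the right end, against 58.4% of the rest. The protein-coding genes of the ends had a median length of 1498 bases, against 1892 bases in the rests, while their median coding length was 1044 bases against 1149. The shortest at the ends, SPAC922.09, had 216 bases and the longest, tlh2, had 6015. Transcription ran toward the chromosome end in 94 of the 189 genes and away from it in 95.

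Non-coding RNA genes made up 95 of the 299 genes (31.8%), against 1152 of 5380 (21.4%) in the rests. They numbered 23 and 30 at the left and right ends of chromosome I, and 27 and 15 at those of IIc, against 10 to 30 (median 18) in the other windows of chromosome I and 9 to 29 (median 17.5) in those of IIc. All 4 ends thus lay within the range of the other windows, and the right end of IIc lay below their median. Within the ends the outer part held fewest. The outermost 50 kb held 11 of them among 82 genes, the next 50 kb 38 among 105, and the innermost 50 kb 46 among 112. Their median length was 790 bases at the ends and 1055.5 bases in the rests, and the ends' values ran from 71 bases (SPNCRNA.83) to 4339 (SPNCRNA.609). Of the 95, 6 had a gene name, all of the prl series of polyadenylated RNAs (prl19, prl37, prl28, prl21, prl61 and prl11).

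Pseudogenes numbered 13 at the ends and 6 in the rests. The left end of chromosome I had 5 (SPAC212.10, SPAC212.09c, SPAC212.07c, SPAC212.05c and SPAC977.13c), the left end of IIc had 4 (SPBC1348.11, SPBPB21E7.06, SPBPB21E7.08 and SPBPB10D8.03) and the right end of IIc had 4 (SPBCPT2R1.05c, SPBCPT2R1.06c, SPBCPT2R1.07c and SPBCPT2R1.10). The right end of chromosome I had 0, and no other window of either chromosome had more than 1. They were 177 to 1697 bases long, and the exons of 3 of them, SPBC1348.11, SPBPB21E7.08 and SPBCPT2R1.06c, were separated only by gaps under 20 bases. The outermost 50 kb held 9 of the 13 and the innermost 50 kb 0. Stable RNA genes were few, namely the rRNA gene SPRRNA.10 at the inner edge of the left end of chromosome I and the tRNA gene SPATRNASER.04, which lay 141305 bases from its right end. No small nuclear or small nucleolar RNA gene lay at an end, and there were 7 and 51 in the rests.

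**Figure D1:**
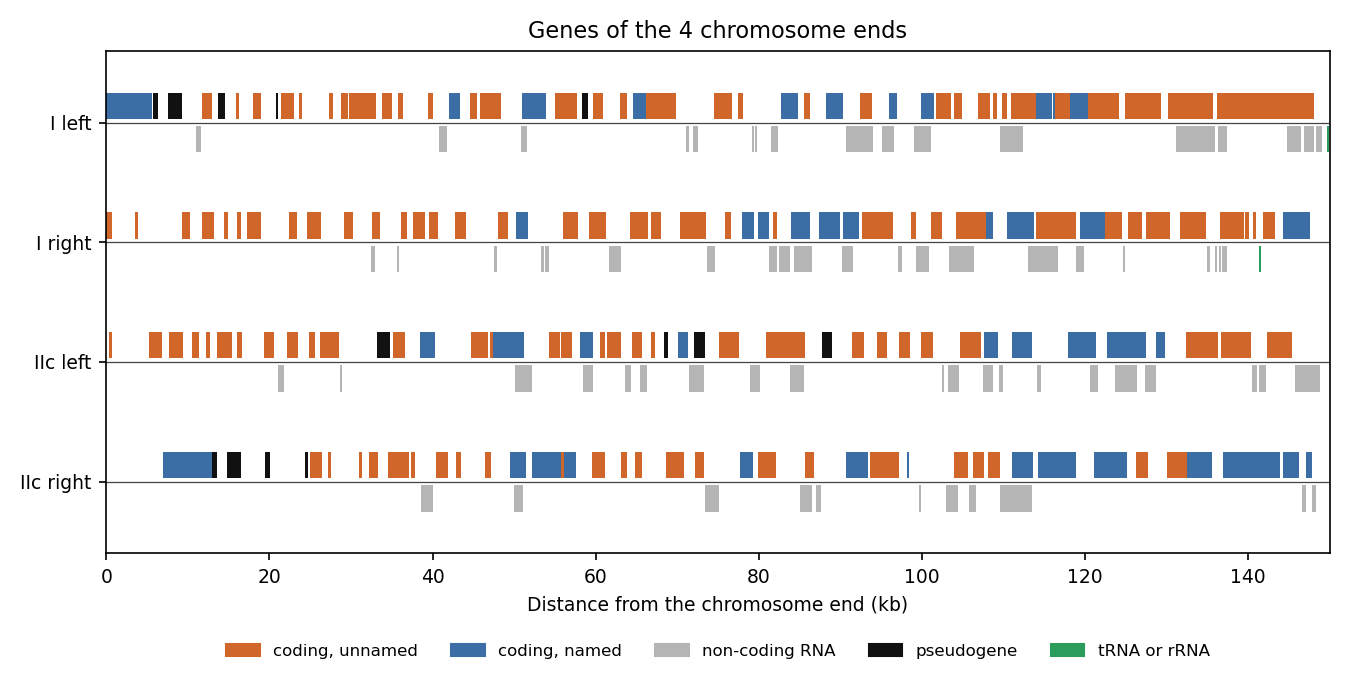
Genes of each chromosome end by distance from that end in kb, with protein-coding genes and pseudogenes above the line and non-coding RNA, tRNA and rRNA genes below it. In the outermost 50 kb, 56 of the 62 protein-coding genes are unnamed, and non-coding RNA genes number 11.

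Most protein-coding genes of the ends had no name beyond their systematic identifier. The unnamed share was 81.5% of 54 genes at the left end of chromosome I and 80% of 50 at its right end, against 36.3% in its rest. At the left end of IIc it was 78.6% of 42 genes and at the right end 58.1% of 43, against 33.5% in its rest. Each end lay above every other window of its chromosome, of which the highest was 50% on chromosome I and 45.5% on IIc. Over the 4 ends, 142 of 189 genes were unnamed (75.1%, 95% Wilson interval 68.5% to 80.8%, treating genes as independent draws), against 1407 of 4014 (35.1%) in the rests. Over the 4 ends together the share was 90.3% in the outermost 50 kb, 69.8% in the next and 65.6% in the innermost. This order held at the right end of IIc, with 83.3%, 66.7% and 31.2%, and not at every other end. At the left end of chromosome I the shares were 88.9%, 60% and 90.5%, at its right end 100%, 64.7% and 76.5%, and at the left end of IIc 87.5%, 87.5% and 50%.

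The right end of IIc stood apart from the other ends through its inner part. Between 100 and 150 kb from that end, 11 of 16 protein-coding genes had names, against 2 of 21, 4 of 17 and 5 of 10 in the same band of the left and right ends of chromosome I and the left end of IIc. These 11 genes were vma10, a subunit gene of the vacuolar proton pump, ppr8, rpc40, which encodes a subunit of RNA polymerases I and III, uap1, tim21, of the mitochondrial import machinery, adn2, spf38 and usp109, which encode proteins of spliceosomal particles, the retrotransposon Tf2-11, pfl5 and cao2. The outermost 50 kb of the right end of chromosome I had 0 named genes among 16.

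RefSeq, a later annotation, gives a symbol to 33 of the 142 unnamed genes. Examples are ftm1 (SPAC977.01), fex1 (SPAC977.11) and fex2 (SPBPB8B6.06c), which encode fluoride export channels, and pdc101 (SPAC1F8.07c) and pdc102 (SPAC186.09), annotated as pyruvate decarboxylases. With those symbols counted as names, 57.7% of the genes at the ends stayed unnamed, against 14.4% in the rests. A RefSeq product other than an uncharacterized protein was given for 109 of the 141 unnamed genes with a product.

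No gene name was used for more than 1 gene anywhere in the annotation (0 repeated names among 7015 genes), so copies at the ends carry names or identifiers of their own. Among names that share a root, the pfl genes, whose products are flocculin-type cell-surface glycoproteins, had 4 of their 7 members at the ends, 1 at each end (pfl6 at the left and pfl9 at the right of chromosome I, pfl7 at the left and pfl5 at the right of IIc). All 3 gal genes of the annotation lay at the right end of IIc. They were gal7 (4481384 to 4482949), which encodes the galactose-1-phosphate uridylyltransferase, gal10 (4483173 to 4486719), the epimerase gene, and gal1 (4487472 to 4489421), the galactokinase gene. The helicase genes tlh1 and tlh2 were the only members of their root, tlh1 at the left end of chromosome I and tlh2 at the right end of IIc. The transporter root ght had 2 of 8 members at the ends, ght3, annotated as a gluconate symporter, and ght7, annotated as a hexose transporter. The root isp, a set of sexual differentiation genes, had 2 of 5 (isp3 and isp5), and mug, the meiotically upregulated genes, 2 of 113 (mug14 and mug180).

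Transport across membranes was the most common annotated function among the kinds of product counted. RefSeq product names of a transporter or permease were found for 36 of 188 genes at the ends (19.1%), against 124 of 4003 (3.1%) in the rests. The left and right ends of chromosome I had 8 and 11, and those of IIc 14 and 3. They included 8 carriers matched by the words amino acid or proline. Among these were isp5, cat1 and put4 at the right end of chromosome I and aat1 at the left end of IIc. The cysteine transporter gene SPBPB10D8.01 at the left end of IIc was counted among the 36 but not among these 8. Others were the sodium/proton antiporter gene sod2 and the siderophore-iron transporter gene str3 at the left end of chromosome I, the glutathione transporter gene pgt1 at its right end, and the drug resistance-associated gene abc3 at the left end of IIc. Cell-surface glycoproteins or GPI-anchored proteins accounted for 8 genes (4.26%) against 7 (0.175%), and dehydrogenases, oxidoreductases or reductases for 11 (5.85%) against 126 (3.15%). The dehydrogenases included atd2, an aldehyde dehydrogenase gene, and SPAC186.08c, annotated as a lactate dehydrogenase. All 4 genes of these chromosomes whose product name is L-asparaginase, SPAC977.12, SPAC186.03, SPBPB8B6.05c and SPBPB21E7.09, lay at the ends. Ribosomal protein genes numbered 0 at the ends and 180 (4.5%) in the rests, and kinase genes 3 (1.6%) and 162 (4.05%). The product names were matched as words, so a gene whose name omits its function was not counted.

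Introns were rarer at the ends. Every gap between exons of a transcript was counted as an intron, however short. At least 1 intron was annotated in 25.9% of the protein-coding genes at the left end of chromosome I and in 12% at its right end, against 49.1% in its rest. The shares were 23.8% at the left end of IIc and 20.9% at its right end, against 52.1% in its rest. Each end lay below all other windows of its chromosome, whose lowest values were 28.6% on chromosome I and 40.4% on IIc. In all, 39 of 189 genes had an intron (20.6%, 95% Wilson interval 15.5% to 27%), against 2025 of 4014 (50.4%), and the mean number per gene was 0.333 against 1.06. Of the 39, 26 had 1 intron. In 3 of these 39 genes, SPAC977.16c (dak2), SPAC1F8.07c and SPBPB21E7.02c, the only gap was under 20 bases, and without such gaps 36 genes had an intron (19%), against 2013 (50.1%) in the rests. The genes with most introns were klf1, a transcription factor gene at the right end of chromosome I, with 5, spf38 with 5, vma10 with 4, SPBC1348.12 with 4 and SPBPB2B2.18 with 3. At the left end of chromosome I, SPAC977.18, SPAC11D3.03c and SPAC11D3.11c had 2 each, the most there. The median intron length was 51 bases at the ends and 55 in the rests.

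Neighbouring protein-coding genes stood further apart at the ends. The median distance between neighbours on either strand, in which an overlap counts as a negative distance, was 696 bases at the left end of chromosome I and 1165 at its right end, against 143 in its rest. It was 1370 bases at the left end of IIc and 958 at its right end, against 161 in its rest. The medians of all other windows were between 49 and 255 bases on chromosome I and between 83 and 227 on IIc. Over the ends, 24 of 185 neighbouring pairs overlapped (13%), against 1229 of 4012 (30.6%), and 51 were more than 2000 bases apart (27.6%), against 111 (2.77%). The difference was present for each orientation, with medians of 543 against -51 bases for convergent pairs, 1110 against 468 for divergent pairs and 1199 against 229 for pairs on the same strand. Over the 4 ends the median was 1297.5 bases in the outermost 50 kb, 1325 in the next and 418 in the innermost. The ends differed in this. From the outermost to the innermost band the medians were 1155, 1876 and 44 bases at the left end of chromosome I and 1806, 1323 and 446 at its right end. At the left end of IIc they were 1248.5, 1362.5 and 1370 bases, and at its right end 1105.5, 1405 and 567, so the left end of IIc had no shorter distances in its inner bands.

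The longest stretch between protein-coding genes at the left end of chromosome I was 6121 bases, between tlh1 and SPAC212.08c, and it held 2 pseudogenes and SPNCRNA.70. At its right end it was 5389 bases, between SPAC750.06c and SPAC750.07c, with 0 genes of any kind inside. At the left end of IIc it was 6535 bases, between SPBC1348.10c and SPBC1348.12, and it held SPNCRNA.11 and the pseudogene SPBC1348.11. At the right end of IIc it was 12069 bases, between SPBCPT2R1.04c and tlh2, and it held all 4 pseudogenes of that end. The largest overlap at an end was 3291 bases, between SPBPB2B2.11 and gal10 on opposite strands.

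**Figure D2:**
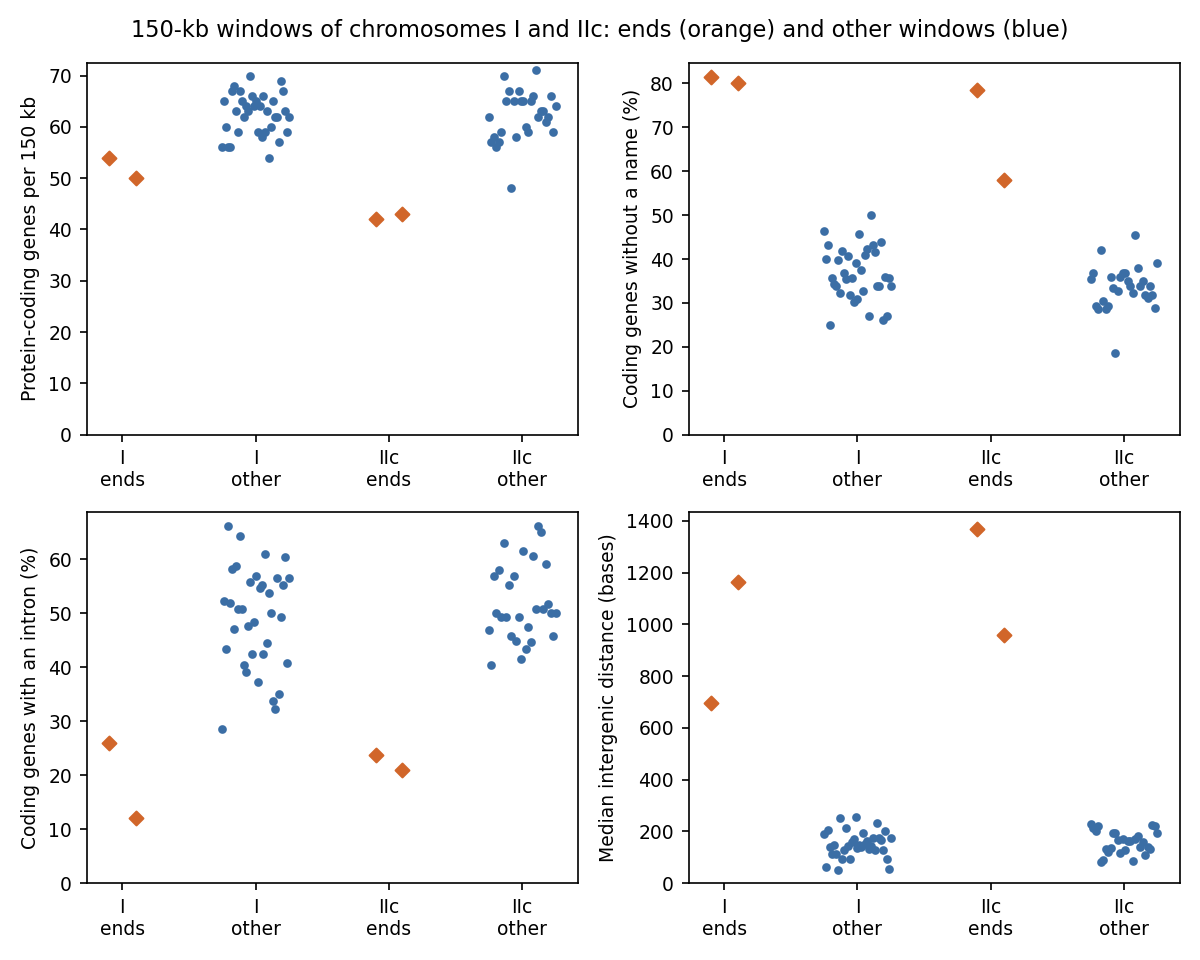
Protein-coding genes per window, percent of them without a name, percent with an intron, and median distance between neighbouring protein-coding genes in bases, for the 150-kb ends (diamonds) and the other 150-kb windows (dots) of each chromosome, spread sideways for legibility. The ends lie apart from the other windows in name, intron and distance on both chromosomes, and the left end of chromosome I equals its lowest window, with 54 genes, in gene number.

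**Figure D3:**
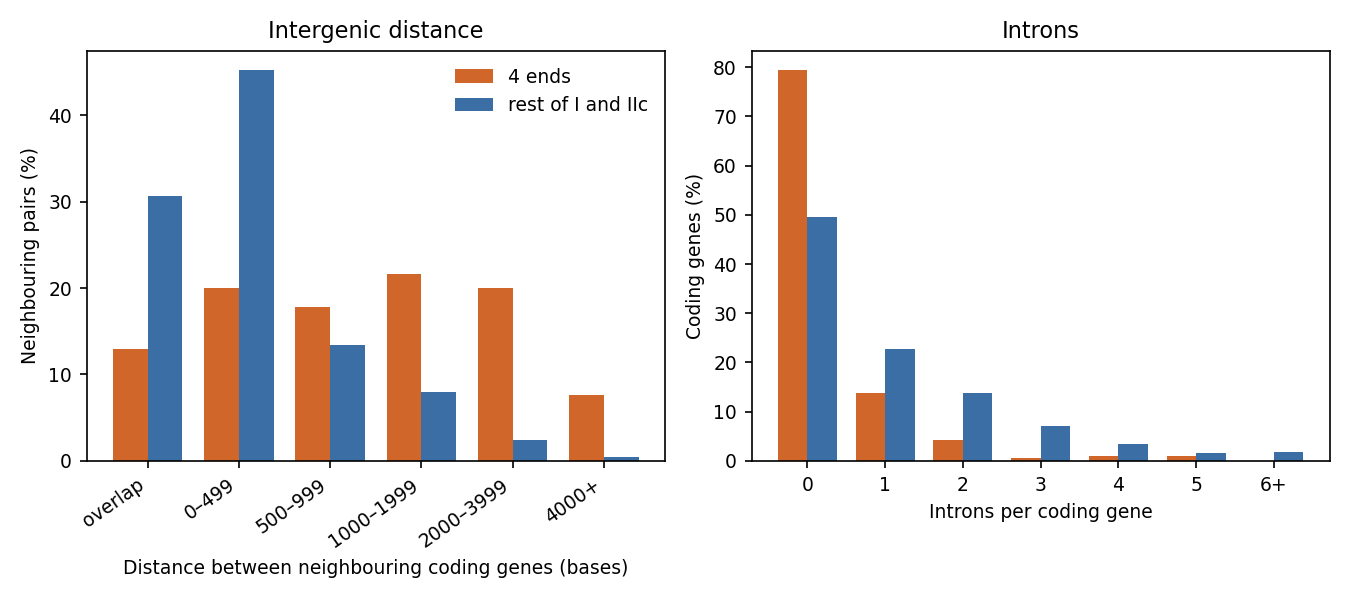
Percent of neighbouring protein-coding gene pairs by the distance between them in bases (left) and percent of protein-coding genes by number of introns (right), for the 4 ends together and the rests together. Pairs 2000 bases or more apart are a larger share at the ends, as are genes with 0 introns.

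Proteins of the ends resembled other proteins of the genome more often than those elsewhere did. A pair was counted as similar when a protein search aligned at least 70% of the shorter protein with at least 50% identity. The search used proteins translated from RefSeq coding sequences, a step taken after the files were seen, whereas the plan had been to leave this measure out without a protein table. By this rule, 108 of 188 proteins of the ends had a similar protein (57.4%, 95% Wilson interval 50.3% to 64.3%), against 345 of 4003 (8.62%) in the rests. The interval treats genes as independent draws, whereas a similar pair within the ends counts both of its proteins. The shares were 64.8% and 46% at the left and right ends of chromosome I, against 9.13% in its rest, and 64.3% and 54.8% at those of IIc, against 7.98% in its rest. For 73 of the 188 a similar protein lay at another end. Of the 188, wherever the match lay, 56 had one of 90% identity or more. Among unnamed genes of the ends 62.4% had a similar protein and among named ones 42.6%, whereas in the rests these shares were 4.73% and 10.7%. Over the 4 ends together, the share was 88.7% in the outermost 50 kb, 43.5% in the next and 40.6% in the innermost, and the share with a similar protein at another end was 82.3%, 22.6% and 12.5%.

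All of the 5 outermost protein-coding genes of each end, 20 in total, had a similar protein, and 19 of them had it at another end. From the left end of chromosome I inward they were tlh1, SPAC212.08c, SPAC212.12, SPAC212.06c and SPAC212.04c. From its right end they were SPAC750.08c, SPAC750.07c, SPAC750.06c, SPAC750.05c and SPAC750.04c. On IIc they were SPBC1348.15, SPBC1348.01, SPBC1348.02, SPBC1348.03 and SPBC1348.04 from the left end, and tlh2, SPBCPT2R1.04c, SPBCPT2R1.03, SPBCPT2R1.02 and SPBCPT2R1.01c from the right end. The exception was SPAC750.08c, annotated as a malic enzyme, whose similar protein (92.1% identity) is the malate dehydrogenase Mae2, encoded on chromosome III. It reaches the last base of chromosome I and has no annotated start codon. In the same way tlh1 reaches base 1 of the chromosome and has no annotated stop codon. SPAC977.01, which begins at base 29764 of the deposited chromosome I, has no annotated start codon, and in RefSeq chromosome I holds 100 ambiguous bases from 29664 to 29763. Of the 4203 protein-coding genes of both chromosomes 4 lacked either codon, and the other was the retrotransposon Tf2-10 in the rest of IIc.

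There were 114 similar pairs with both proteins at ends, 90 at different ends and 24 at the same end. The number of introns was the same in both genes for 110 of the 114. Grouped by shared similarity, the 108 proteins of the ends with a similar protein fell into 54 families that may include proteins elsewhere. Of these families 27 had 2 or more members at the ends, 24 had members at 2 or more ends and 4 at all 4 ends. Members at the ends alone were found in 20 families. The family with most members was that of the 10 uncharacterized proteins described above with their introns, and identity within it was 52.4% to 100%. Families of transmembrane proteins, SPAC750.05c, SPAC977.01, SPBC1348.02 and SPBPB2B2.19c (99.7% to 100%) and SPAC750.04c, SPAC977.02, SPBC1348.03 and SPBPB2B2.17c (98.6% to 100%), also had 1 member at each end. A family of transporters likewise had 1 member at each end. In it SPAC750.02c, SPBC1348.05 and SPBPB2B2.16c had 485 residues each, while SPAC977.04 at the left end of chromosome I had 155.

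Copies were identical at the base level in many cases. Among pairs at the ends, 24 had 100% identity over the aligned protein, and the coding sequences of 15 of them were the same in every base, 3 had equal length and 1 different base, and 6 had unequal lengths. The longest was the pair of tlh1 and tlh2, identical over 1887 residues, followed by the phospholipase pair shown above over 673 residues and the transporters SPAC750.02c and SPBPB2B2.16c over 485. The transporter genes SPBPB10D8.04c, SPBPB10D8.05c, SPBPB10D8.06c and SPBPB10D8.07c at the left end of IIc stood next to each other and had the same 1140 coding bases. Their combinations make up 6 of the 15 identical pairs, and the other identical pairs lie between different ends. Reads that lie wholly within coding sequence identical between copies cannot be assigned to 1 of them by sequence. Sequence outside the coding bases was not compared, and no source used here says how the authors treated such reads.

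Similar genes followed each other in the same order at different ends. A run was counted where 2 or more consecutive protein-coding genes had similar partners in the same order from the chromosome end and with the same direction relative to it. There were 10 runs, which together held 39 of the 189 genes, all within 48399 bases of an end. The longest run had 8 genes, SPAC977.02 to SPAC977.09c at the left end of chromosome I (16366 bases, beginning 32033 bases from the end) and SPBC1348.03 to SPBC1348.10c at the left end of IIc (18008 bases, beginning 10568 bases from the end). From the end inward it held a transmembrane protein, the methyltransferase shown above, a transporter, a Vel1p domain protein, a member of the family of 10, a glycoprotein (pfl6 on chromosome I), a dehydrogenase and the phospholipase, with identities of 98.3% to 100%.

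Distances between genes in that run were alike at some places and not at others. The first interval measured 822 bases at the left end of chromosome I and 824 at the left end of IIc. Between the methyltransferase and the transporter it was 25 bases on chromosome I, where the transporter gene is the short copy SPAC977.04, and 821 on IIc. The interval between SPAC977.05c and SPAC977.06 measured 3033 bases, and its counterpart on IIc 2802.

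A run of 7 genes joined the left end of chromosome I (SPAC212.04c to SPAC977.02, 11632 bases) with the right end of IIc (SPBCPT2R1.04c to SPBPB2B2.17c, 12860 bases), with identities of 70.1% to 100%. In it the interval between SPAC212.01c and SPAC977.01 measured 106 bases, and its counterpart on IIc 1259. RefSeq holds 100 ambiguous bases on chromosome I from 29664 to 29763, so the length of the span on chromosome I is uncertain. A run of 5 joined the right end of chromosome I (SPAC750.06c to SPAC750.02c, 9615 bases) with the left end of IIc (SPBC1348.01 to SPBC1348.05, 10155 bases), at 95.4% to 99.8%. The remaining 7 runs had 2 or 3 genes. Families outside these runs also had members at several ends. Among them were the amino acid permease family with 5 members at 3 ends (isp5, cat1, SPBC359.01, aat1 and SPBPB2B2.01), the L-asparaginase family of 4 (69.4% to 99.7%), and the fluoride channels fex1 and fex2 (100%).

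**Figure D4:**
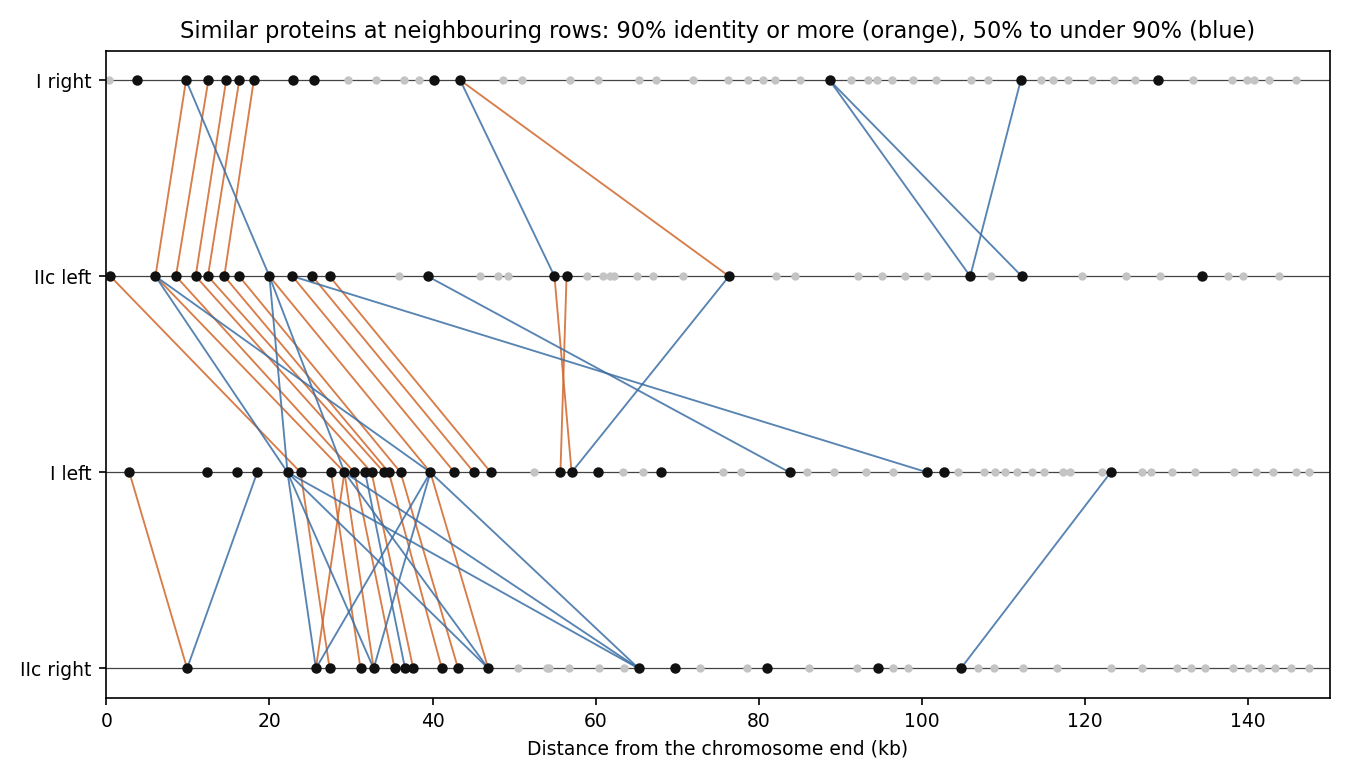
Protein-coding genes of the 4 ends by distance from the chromosome end in kb, with black points for genes whose family has members at 2 or more ends, grey points for other genes, and lines between similar proteins of rows drawn next to each other. Near-parallel lines within 50 kb of the ends include the runs of 8, 7 and 5 genes in equal order. Identities in the run of 7 ranged from 70.1% to 100%.

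The inner boundary was set by the rule, and 5 protein-coding genes that cross it were left out, SPAC5H10.02c, SPAC5H10.03, clr5, SPBC1683.05 and pob1. The last genes inside were SPRRNA.10 at 149776 bases and pgt1 at 147559 bases from the left and right ends of chromosome I, and SPNCRNA.1316 at 148807 and SPNCRNA.1689 at 148368 bases from those of IIc.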

How the data were processed

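Sample groups follow the labels, and no sample value was analysed. The values used are gene positions and sequence lengths, in bases, from the gene annotation and the length list that the authors deposited for the series. Per the submitters' processing notes, the build was ASM294v2, and the tools listed are bedtools, BWA, SAMtools, Bowtie2 and deepTools 2.5.3. No source used here says how the annotation was made. The members and gene lists were chosen with earlier results of these data known.

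A gene spans its first to last exon base, and it is unnamed where its name equals its identifier. Distances use neighbouring protein-coding genes within 1 end or rest. Genes were matched to RefSeq (ASM294v3) by identifier (284 of 299), and no coordinate was carried between builds. The plan was to leave the share with a similar protein out unless a protein table was given. None was, and the plan was not followed: proteins were translated from RefSeq coding sequences (188 of 189 genes, SPBC8E4.02c missing) and searched with BLAST+ 2.17.0 at an e-value limit of 1e-05, a step chosen after the files were seen. Families join all proteins linked by similar pairs. Counting and search were tested on simulated data. Python 3.11.15 and matplotlib 3.10.9 were used. The Wilson intervals describe counting error only.

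The genes named were the 5 outermost protein-coding genes of each end, those at the boundary, name roots with 2 or more members, all pseudogenes and stable RNA genes, those with most introns, the longest gap of each end, the most alike pairs (24 tied at 100% identity, so the longest were named), tlh1, tlh2 and the gal genes, and examples of listed product words. Product words for methyltransferases, L-asparaginases, ribosomal proteins and kinases, and the genes in runs of equal order, were added after their values were seen. Alternatives changed the width of an end, membership, the naming source, intron and distance definitions and the identity limit. The intron of 1 gene of the family of 10 is not reported here.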

Additional observations from a re-analysis of the deposited data

How the results depend on the processing

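Every result kept its direction against the rest under each of the 23 alternatives, of which the RefSeq annotation and the minimum intron length of 20 bases were chosen after seeing the data. The values depend on the width chosen. With ends of 200 kb the unnamed share was 61.3%, the median distance 633 bases and the share with a similar protein 44.2%. With ends of 100 kb the median distance was 1323 bases, the similar share 65.6% and the non-coding RNA share 25.7%, against 21.8% in the rest, the smallest difference found for that share. Counting RefSeq symbols as names gave 57.7% unnamed. The RefSeq annotation gave a non-coding RNA share of 64.5% at the ends and 56.2% in the rests. The median distance was 363 bases between neighbours of any biotype, against 38 in the rests, and 1474 bases between coding spans, against 640. The similar share was 69.1% at 30% identity, against 22%, and 29.8% at 90%, against 3.1%. The other 11 alternatives stayed within the 95% interval of the value reported or, for gene density, between 30.8 and 34.9 per 100 kb, against 31.5. No paired analysis was possible because the results come from no test and use no sample.

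Limits are those of an annotation and of its reference sequence. Gene names and non-coding RNA genes reflect what had been annotated, and similarity was measured on another build, by a step outside the plan. Distances are counted from the ends of the deposited sequences. That of chromosome I stops inside tlh1 at its left and SPAC750.08c at its right, so distances from the telomeres themselves are not known. In RefSeq the left ends of chromosomes I and II hold 100 ambiguous bases each. Sequencing depth plays no part in these values.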

Other observations

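Long terminal repeats of retrotransposons were denser at all 4 ends than in the rests. In the RefSeq annotation of ASM294v3 the left and right ends of chromosome I held 8.67 and 2.67 per 100 kb, against 1.38 in its rest, and those of chromosome II held 8 and 8.67, against 1.04. A whole retrotransposon gene of the deposited annotation, Tf2-11, lay at an end, 121146 bases from the right end of IIc, and its protein was 99.2% to 99.6% identical to those of the 12 other Tf2 genes. The ends were also poorer in G and C, with 34.7% and 34.2% at the left and right ends of chromosome I, against 36.2% in its rest, and 32.9% and 33.9% at those of chromosome II, against 36.1%. The other 150-kb windows ranged from 34.6% to 37.3% on chromosome I and from 34.8% to 36.7% on chromosome II, so the left end of chromosome I lay within that range and the other ends lay below it.

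The suffix c of a systematic identifier was compared with the strand of the gene in the chromosome. A suffix c on a forward-strand gene, or its absence on a reverse-strand gene, was counted as going against the strand. Whether the suffix refers to the strand of the chromosome was not tested. Among protein-coding genes and pseudogenes, 32 of 202 at the ends (15.8%) had a suffix that goes against their strand in the chromosome, against 561 of 4020 (14%) in the rests. At the ends they were concentrated in blocks of identifiers, with 11 of 12 genes of the SPAC212 block at the left end of chromosome I, all 11 of the SPAC869 block at its right end and 5 of 6 of the SPBC8E4 block at the right end of IIc.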
